A study of Mus musculus with 4 samples.

Results

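The let-7 family was examined in mouse hippocampus after spatial training. Its members were the 10 probes named mmu-let-7a, mmu-let-7b, mmu-let-7c, mmu-let-7d, mmu-let-7e, mmu-let-7f, mmu-let-7g, mmu-let-7i, mmu-let-7d* and mmu-miR-98, where mmu stands for the mouse, out of 705 mouse miRNA probes on the array. All mice were wild-type C57BL/6J, a common inbred strain, and all had been trained in the Morris water maze, in which a mouse learns where a hidden platform lies. Good performers (4 mice, 2 arrays) were set against poor performers (4 mice, 2 arrays), with the hippocampus taken straight after training and no untrained mice used here. The sources used here do not say which mice went on which array, nor their age or sex. A p-value therefore reflects the spread between the arrays of a group, and that spread may be technical.

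Let-7 miRNAs are small RNAs that lower the output of messenger RNAs that pair with their seed, bases 2 to 8 of the mature strand. They accumulate as cells differentiate, and in stem cells the protein LIN28 binds their precursors and blocks maturation. In mouse neural stem cells let-7b is known to lower the nuclear receptor TLX and cyclin D1, and let-7d to lower TLX, and the family is abundant in mature neurons. miR-98 carries the same seed under another name, and let-7d* is the strand from the opposite arm of the let-7d hairpin.

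The mature strands are shown because a single shared seed and few differing bases define the family and limit how far probes can separate its members. All 10 members matched the RefSeq miRNA table (mouse build GRCm38.p6), where unstarred names carry the ending 5p and let-7d* is let-7d-3p. Bases 2 to 8 are in capitals.
let-7a: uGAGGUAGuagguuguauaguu
let-7b: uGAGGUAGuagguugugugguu
let-7c: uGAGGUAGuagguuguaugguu
let-7d: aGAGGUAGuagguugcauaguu
let-7e: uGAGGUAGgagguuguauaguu
let-7f: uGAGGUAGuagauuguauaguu
let-7g: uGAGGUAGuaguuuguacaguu
let-7i: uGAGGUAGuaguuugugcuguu
miR-98: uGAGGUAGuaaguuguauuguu
let-7d*: cUAUACGAccugcugccuuucu

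The first 9 strands share the seed, and let-7d* has another. Counted from the 5′ end with the base of let-7a first, let-7c differs from let-7a by A19G, let-7e by U9G and let-7f by G12A. let-7b differs by A17G and A19G, let-7d by U1A and U16C, let-7g by G12U and U18C, and miR-98 by G11A and A19U. let-7i differs most from let-7a, by G12U, A17G, U18C and A19U. Among the 36 pairs of these 9 strands, 4 pairs differ at 1 base and the most distant pair at 6. How far one strand bound the probe of another was not tested, and a difference between neighbours in sequence cannot be ascribed to 1 strand alone.

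The strands lie in 12 hairpins. let-7d, let-7f and let-7a are encoded close together on the minus strand of chromosome 13, at chr13:48536078-48536099, chr13:48537889-48537910 and chr13:48538239-48538260, and let-7a again on chromosome 9 within the non-coding gene Mir100hg. let-7c and let-7b are 621 bases apart, hairpin to hairpin, within the non-coding gene Lncppara on chromosome 15, and a second let-7c hairpin lies on chromosome 16. A second let-7f hairpin and that of miR-98 are 785 bases apart within the Huwe1 gene on the X chromosome. let-7g lies within Wdr82 on chromosome 9, let-7e within Spaca6 on chromosome 17, and let-7i at chr10:122985698-122985719. A probe for let-7a, let-7c or let-7f therefore sums the strands of 2 hairpins. The let-7d hairpin is shown because both of its arms were measured. It is on the minus strand at chr13:48536012-48536114, with let-7d first and let-7d* second in capitals.
Mirlet7d: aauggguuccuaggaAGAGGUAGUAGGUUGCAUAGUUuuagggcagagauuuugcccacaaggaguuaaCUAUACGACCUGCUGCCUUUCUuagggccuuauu

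The arrays gave 1 brightness value, the raw intensity, for each of 3 spots per probe. A flag was 0 for a spot taken as passed and -50 for one taken as not passed. Between 310 and 330 probes per array had at least 2 spots at flag 0, and 316 probes were tested. Blank spots averaged 63.0 and 64.4 in good performers, against 64.0 and 63.9 in poor performers. The neuronal markers of the tissue were all measured (6 of 6 tested), miR-124 far above the blanks on every array. Markers of other cells a dissection could hold were tested for 4 of 6 microglial and immune, 5 of 5 vascular, 4 of 6 choroid plexus and ependymal and 2 of 3 blood miRNAs. Astrocyte and oligodendrocyte markers were all tested, 4 of 4 and 3 of 3. Of all markers fixed, only oligodendrocyte miR-219 passed the test between groups, at a log2 fold change of -0.27 (limma adjusted p = 0.025). Among all tested probes, 5.06% passed.

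All 8 unstarred let-7 strands and let-7d* were at flag 0 on all 12 of their spots. The 8 let-7 strands lay well above the blank spots, let-7c at a raw intensity of 2216 and 2593 in good performers, against 2087 and 2187 in poor performers. let-7i, the dimmest of those 8 probes, read 388 and 446 in good performers and 403 and 424 in poor performers. Brightness also depends on the probe, so these values do not rank the strands by amount. No member spot came near the scanner's ceiling of 65535, since the brightest read 2987.

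let-7d* was dim but steady, at 135.3 and 135.7 in good performers, against 129.3 and 132.0 in poor performers. miR-98 was at the edge of detection, at 84.7 and 100.3 in good performers, against 83.3 and 87.7 in poor performers. It had 7 of its 12 spots at flag 0, namely 1 and 3 of 3 in good performers and 1 and 2 of 3 in poor performers. It therefore did not reach 2 passed spots on both arrays of either group, and 9 of the 10 members were tested.

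**Figure D1:**
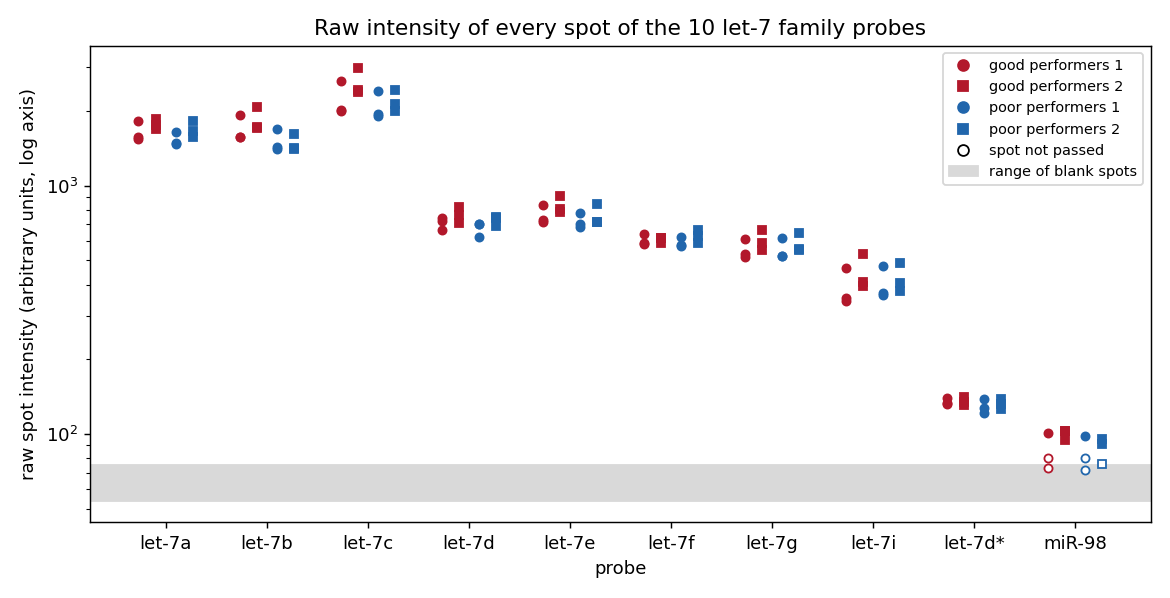
Raw intensity of every spot (log axis, arbitrary units) for the 10 members on the 4 arrays, with good performers to the left of poor performers for each probe, open symbols for spots that did not pass and a grey band for the range of blank spots. Only miR-98 has open symbols, and the 8 unstarred let-7 probes lie above the band by a wide margin.

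Beside let-7d*, the array carried 6 other probes for starred let-7 strands. These were let-7b*, let-7c-1*, let-7f*, let-7g*, let-7i* and 1 probe for let-7a* and let-7c-2*, which have the same sequence. None was tested. Of their spots, only 1 of let-7i*, on a poor-performer array, was at flag 0. let-7i* read 78.3 and 76.7 in good performers, against 73.0 and 75.3 in poor performers, and the other 5 probes averaged between 57.1 and 63.9 over the 4 arrays, beside a mean of 63.8 for blank spots. miR-1961, which RefSeq lists with the let-7 seed, averaged 57.3 and had no passed spot. Among the starred let-7 strands on the array, let-7d* was thus the only one that passed on every spot.

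The comparison asked whether let-7 strands differed between good and poor performers. None of the 9 tested members passed at an adjusted p under 0.05 (limma, adjusted over all 316 probes), while 5.06% of all tested probes did. let-7b had the highest log2 fold change, 0.15, and let-7f the lowest, -0.12, and these were the 2 members with an unadjusted p under 0.05, a level that 20.9% of all tested probes reached. The median of the 9 members was 0.0035, beside -0.0072 over all tested probes, and 5 members had the higher mean in good performers, against 45.9% of all tested probes. That median was below 0 after spike-in scaling (-0.07, beside -0.11 over all tested probes) and in the authors' normalized table (-0.03, beside -0.08). The member median was above 0 in the centred authors' table (0.08, beside 0.03) and without normalization (0.07, beside 0.03). The same held with 75th percentile scaling (0.05, beside 0.01). In each of these settings the member median lay above that of all tested probes. In whole hippocampus, fewer cells of a type and less RNA per cell cannot be told apart.

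let-7b, which differs from let-7c only at position 17, had raw intensities of 1682 and 1834 in good performers, against 1509.7 and 1479.7 in poor performers. After normalization its log2 intensity was 10.71 and 10.79 in good performers, against 10.61 and 10.58 in poor performers. Both good-performer arrays were the higher ones, and each of its 3 spots, which share the same arrays, had the higher mean in good performers. The log2 fold change was 0.15 ± 0.04 (SE), or 1.11-fold, with a 95% interval from 0.04 to 0.26 (limma adjusted p = 0.160). Over the alternatives it ranged from 0.08 in the authors' normalized table to 0.23 without normalization.

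let-7c, whose hairpin neighbours that of let-7b on chromosome 15, had 11.12 and 11.24 log2 units in good performers, against 11.07 and 11.15 in poor performers. Its groups overlapped, with the second good-performer array highest and the first poor-performer array lowest. The difference was 0.07 ± 0.06 log2 units (SE; limma adjusted p = 0.577), and it was -0.0022 in the authors' normalized table. It was 0.0081 without good performers replicate 2, 0.03 without poor performers replicate 1, 0.11 without poor performers replicate 2 and 0.13 without good performers replicate 1.

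let-7a had 10.67 and 10.76 log2 units in good performers, against 10.63 and 10.72 in poor performers. The second array of each group was the higher one, and the difference between arrays of a group (0.09 and 0.10) exceeded that between groups (0.04 ± 0.05, SE; limma adjusted p = 0.725), which turned to -0.06 with spike-in scaling.

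let-7e and let-7d showed the smallest differences of the unstarred strands. let-7e had 9.56 and 9.60 log2 units in good performers, against 9.56 and 9.59 in poor performers, a log2 fold change of 0.0035 ± 0.03 (SE). let-7d had 9.47 and 9.49 in good performers, against 9.48 and 9.53 in poor performers, a log2 fold change of -0.03 ± 0.03 (SE). The groups overlapped for both. The opposite arm, let-7d*, had 7.11 and 7.04 in good performers, against 7.06 and 7.03 in poor performers, and a log2 fold change of 0.03 ± 0.04 (SE). The 2 arms of the hairpin shown above thus had values of opposite sign, each smaller than its error. Under other scalings let-7d turned to 0.07 without normalization and let-7d* to -0.08 in the authors' normalized table. The median of all tested probes moved too, to 0.03 without normalization and to -0.08 in that table. let-7d* lay above that median in all 16 alternatives. The adjusted p of let-7d, let-7d* and let-7e was 0.725, 0.725 and 0.979 (limma).

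let-7f had raw intensities of 603 and 607 in good performers, against 591 and 627 in poor performers, and these overlapped. After normalization it had 9.22 and 9.14 log2 units in good performers, against 9.31 and 9.29 in poor performers, so that the groups no longer overlapped. The log2 fold change was -0.12 ± 0.04 (SE), or 0.923-fold, with a 95% interval from -0.23 to -0.0072 (limma adjusted p = 0.221). Its size depended on the scaling. It was -0.15 with spike-in scaling, -0.03 when scaled to the 75th percentile, -0.0011 in the centred authors' table and -0.0098 with no normalization. In the authors' normalized table it passed, at -0.12 (limma adjusted p = 0.046), where 9.81% of all tested probes passed as lower and the median of all tested probes was -0.08. There let-7f had the same value, 577.3, on both good-performer arrays, against 626.6 and 626.8 in poor performers. That call thus came with almost no spread within groups.

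let-7g and let-7i, which differ from each other at 2 bases, had values close to that of let-7f. let-7g had 9.09 and 9.14 log2 units in good performers, against 9.19 and 9.21 in poor performers, a log2 fold change of -0.08 ± 0.03 (SE; limma adjusted p = 0.261). let-7i had 8.56 and 8.71 in good performers, against 8.72 and 8.73 in poor performers, a log2 fold change of -0.09 ± 0.06 (SE; limma adjusted p = 0.471). For let-7i the first good-performer array stood apart from the other 3, and without it the log2 fold change was -0.02. Without the second it was -0.16. let-7g turned to 0.02 without normalization, 0.00029 with 75th percentile scaling and 0.08 in the centred authors' table, and let-7i to 0.0041 without normalization.

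**Figure D2:**
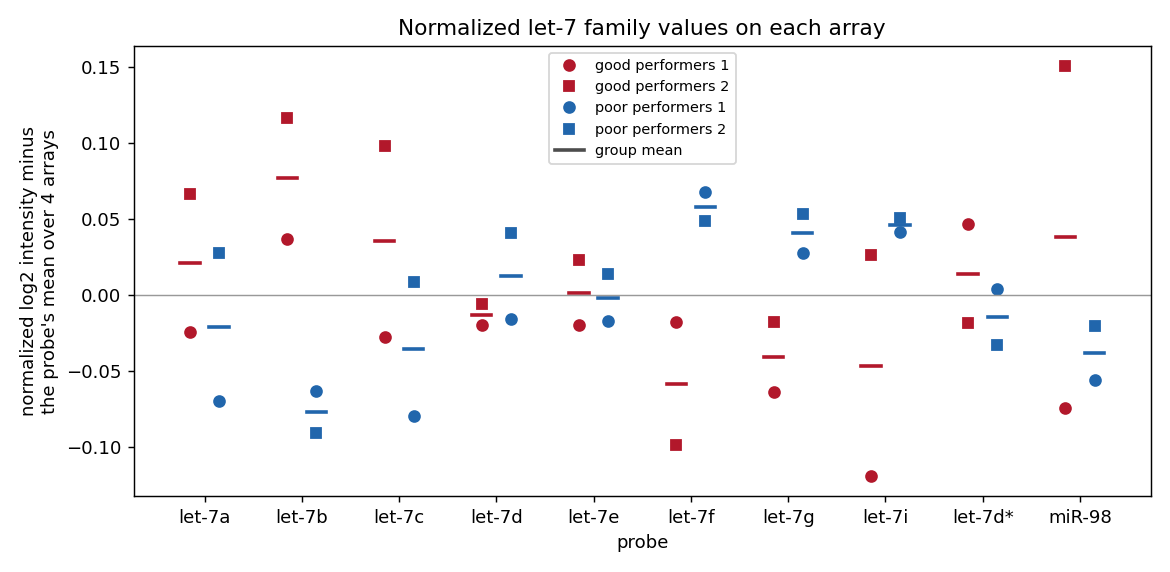
Normalized log2 intensity of each member on each array, as the difference from that probe's mean over the 4 arrays, with good performers to the left of poor performers and a bar for each group's mean. The groups lie apart for let-7b, higher in good performers, and for let-7f, let-7g and let-7i, lower in good performers; miR-98 is shown but was not tested.

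In all, the arrays of the groups did not overlap for 4 of the 9 tested members, against 50.6% of all tested probes. Higher in good performers was 1 member (23.1% of all tested probes) and lower were 3 (27.5%). These counts follow the reported normalization, since the raw values of let-7f, let-7g and let-7i overlapped. The 95% intervals bound the values under the reported normalization only. Their widest ends were a 1.20-fold higher level for let-7b and a 0.840-fold level for let-7i, so that no tested member's interval reached 0.5 log2 units in either direction. These intervals rest on limma's pooled variance and on 2 arrays per group, and other scalings shift them. Without normalization the log2 fold change of let-7b was itself 0.23. The median SE was 0.0394 for the tested members and 0.0397 for all tested probes, so narrow intervals were not particular to the family.

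**Figure D3:**
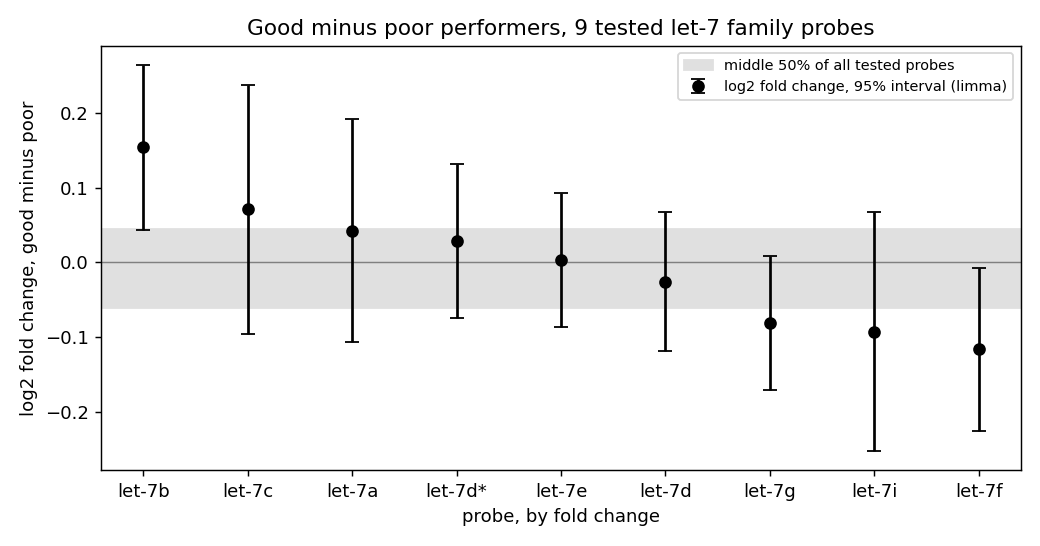
Log2 fold change of good minus poor performers for the 9 tested members, with 95% intervals from limma and a grey band for the middle 50% of all 316 tested probes. The values run from 0.15 for let-7b to -0.12 for let-7f, and no member passed after adjustment.

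The unstarred strands kept much of their order on the raw scale, where no scaling between arrays enters. The log2 ratio of raw intensity, good over poor, was 0.23 for let-7b, 0.17 for let-7c, 0.11 for let-7e, 0.08 for let-7a and 0.07 for let-7d. It was 0.02 for let-7g, 0.01 for let-7i and -0.0081 for let-7f. let-7b and let-7f, the members with the highest and lowest reported value, can also be set against each other within an array, where a factor common to the array cancels. The log2 ratio of raw let-7b over raw let-7f was 1.48 and 1.60 in good performers, against 1.35 and 1.24 in poor performers. The pair was picked for its difference, which fixes the direction of this ratio, so it is a description with no test.

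A feature of the sequences was noticed after the fold changes were seen. let-7f, let-7g and let-7i are the unstarred let-7 strands with a base other than G at position 12 (G12A, G12U and G12U), and they had the 3 lowest values of the 8. The other 5 strands, which share the base of let-7a there, ranged from -0.03 to 0.15. Taking the median over spots, or using the authors' normalized values, put other strands among the 3 lowest. Base composition and brightness ran alongside. Over the 8 strands the log2 fold change correlated with the number of G and C bases at r = 0.69 (7 bases in let-7f, 10 in let-7b) and with the mean log2 intensity at r = 0.87. Without let-7b the correlation with intensity was 0.91 over 7 strands, and over all 316 tested probes it was 0.01. Quantile normalization gives every array the same distribution of spot values, which by itself holds the value over all probes near 0. The 0.01 is therefore no baseline for the 8 strands. These correlations describe 8 probes that share the same 4 arrays and most of their bases, and the part of brightness, base composition or binding between probes in the order of fold changes was not tested.

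**Figure D4:**
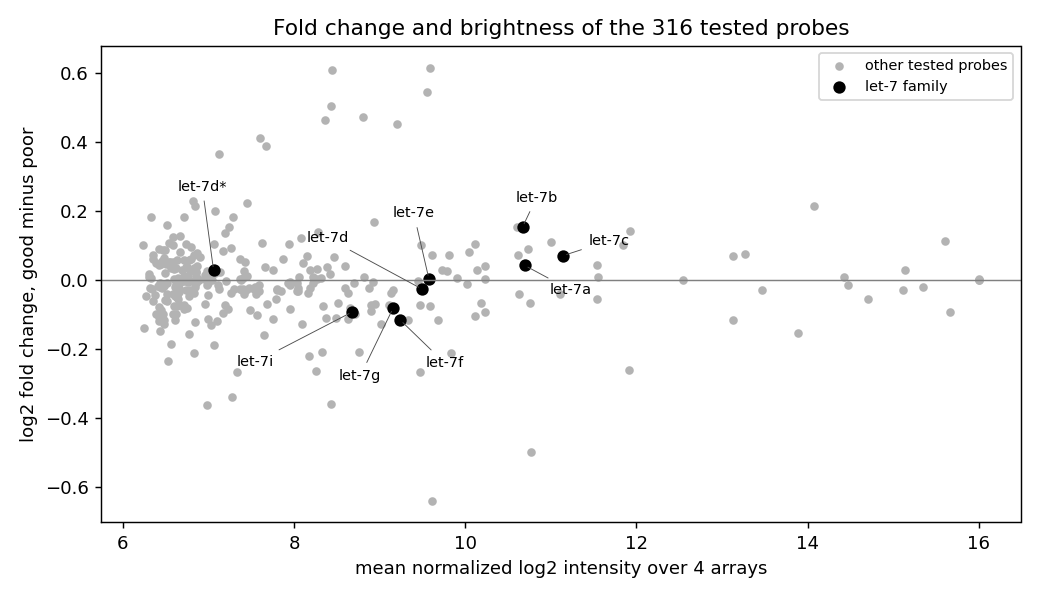
Log2 fold change of good minus poor performers against mean normalized log2 intensity for the 316 tested probes, with the 9 tested let-7 family probes in black. Among the unstarred let-7 strands the brighter probes let-7a, let-7b and let-7c lie above 0 and the dimmer let-7f, let-7g and let-7i below it. Over all tested probes r was 0.01, a value that quantile normalization by itself holds near 0.

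The spread between spots of a probe was larger than most differences between groups. The standard deviation over the 3 spots, as a percent of their mean, ranged from 2.81% for let-7f to 17.7% for let-7i among the tested members. It recurred between arrays, where the same spot was the brightest on all 4 arrays for 8 of the 10 members and for 45.6% of all tested probes. Fold changes taken spot by spot leave this out. They ranged from 0.10 to 0.21 over the 3 spots of let-7b and from -0.15 to -0.08 over those of let-7f. let-7c was higher in good performers at each spot, let-7d, let-7g and let-7i were lower at each, and let-7a, let-7e and let-7d* were higher at 2 of 3 spots. The 3 spots read the same samples on the same 4 arrays, so their agreement adds no replicates. It was not counted over all tested probes.

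A list of 5 miRNAs of the same primary transcripts as let-7 genes was tested, and none passed. miR-99a, 656 bases from the let-7c hairpin of chromosome 16, gave 0.02 as its log2 fold change, while miR-100, 5211 bases from the let-7a hairpin of chromosome 9, gave -0.0048. miR-125a-5p, 367 bases from let-7e, had -0.01, miR-99b 0.08 and miR-125b-5p 0.04, beside 0.07 for let-7c, 0.04 for let-7a and 0.0035 for let-7e. Other arms of these hairpins were outside the list and were added after their values were seen. miR-125a-3p had 7.02 and 7.20 log2 units in good performers, against 7.38 and 7.52 in poor performers, a log2 fold change of -0.34 ± 0.09 (SE), and did not pass (limma adjusted p = 0.154). Both good-performer arrays were the lower ones, as for 27.5% of all tested probes, and miR-125a-5p from the same hairpin did not show this. Of the listed miRNAs, only miR-99b had groups that did not overlap, higher in good performers, as for 23.1% of all tested probes. miR-125b-3p had -0.0096 and miR-125b* -0.0064, and miR-99b* was too dim to be tested.

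In the authors' deposited table all 10 members had a log2 ratio of good over poor. It was 0.08 for let-7b, which ranked 20th of 383 probes from the top, and below 0 for the other 9 members, from -0.0017 for let-7c to -0.15 for let-7i. Across the authors' deposited table, 17.0% of probes had a ratio above 0 and the median over all was -0.08, beside -0.04 over the members. Signs in that table are therefore read against its own median, above which lay let-7a, let-7b, let-7c, let-7e, let-7g, miR-98 and let-7d*.

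**Figure D5:**
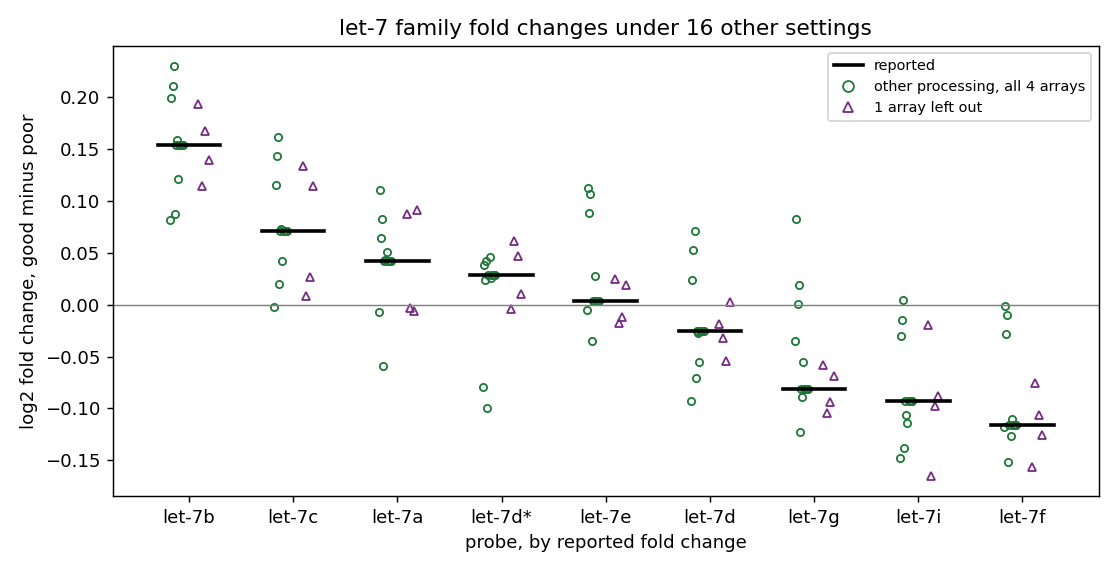
Log2 fold change of good minus poor performers for the 9 tested members as reported (bars), under 12 other ways of processing all 4 arrays (circles, 4 of which repeat the reported value because they change only the filter or the test) and with 1 array left out (triangles). The points of let-7b lie above 0 and those of let-7f below 0, let-7i lies above 0 without normalization only, and the other 6 members cross 0 under at least 1 setting.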

How the data were processed

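Total RNA (2.5 µg per sample) had been labelled with Cy5 and enriched for small RNA, per the labels' protocols, and each of the 4 arrays carried 1 sample. The deposited raw intensity, per the file headers, is unnormalized spot brightness on a linear scale with a flag per spot. A second table holds the authors' normalized intensity for 383 probes and their log2 ratio of good over poor performers, per the file headers. The sources used here give neither the authors' normalization method nor their software or array design.

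Raw intensity was background-corrected with normexp (limma 3.58.1, R 4.3.3, offset 50), taken to log2 and quantile-normalized across arrays on the miRNA spots, and the 3 spots of a probe were averaged. The offset understates changes of dim probes. A probe was tested if both arrays of either group had at least 2 of its spots at flag 0. The groups were compared by two-sided tests in limma (lmFit, eBayes), adjusted by Benjamini-Hochberg over 316 probes, and calls were made at 0.05. An exact permutation test of 2 against 2 arrays cannot go below a p of 0.333, so the test rests on limma's variance model. Only the limma step was tested on simulated data, and the steps before it were not. The number of arrays limits the precision.

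Arrays of a group differed by more than spot noise predicts (variance ratio 2.68 in good and 2.34 in poor performers) and so were not copies of 1 array. They were counted as 2, as labelled, though repeat hybridisations of 1 pool could differ as much. Arrays with the same number deviated from their group means with a correlation of 0.18, which, over only 2 pairs, was not taken as pairing. The members, lists and tests were chosen with earlier results of these data known. Every member of the family is named. The other miRNA names are those of the lists described, apart from the hairpin arms added after their values were seen. Sequences and coordinates are from RefSeq (GRCm38.p6), and no build is named for the array.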

Additional observations from a re-analysis of the deposited data

Results flagged for a closer look

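miR-98 was outside the tested set, yet its signal exceeded the blanks. Its raw intensity averaged 89.0 over the 4 arrays, against a mean of 63.8 for blank spots, and on each array its mean over 3 spots was above the brightest blank. Its normalized log2 intensity was 6.40 and 6.62 in good performers, against 6.42 and 6.45 in poor performers, with the second good-performer array apart from the other 3. With no filter on dim probes the groups differed by 0.08 ± 0.08 log2 units (SE; limma adjusted p = 0.845).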

How the results depend on the processing

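Of the alternatives planned, a slide or scan block was not run, since the files used here give neither. Probes past the threshold numbered 16 as reported, 37 in the table normalized by the authors (6 higher and 31 lower, against 10 and 6 as reported), 31 with spike-in scaling (10 higher, 21 lower), 30 with a trended and robust variance model (17 higher, 13 lower), 7 with offset 1 (6 higher, 1 lower), 6 with the median over spots (5 higher, 1 lower) and 0 to 0 without 1 array (limma; 40 to 59 at an unadjusted p under 0.05). Members past the threshold numbered 0, except 1 in the authors' normalized table, let-7f at -0.12; without 1 array they numbered 0 (0 to 2 at an unadjusted p under 0.05). Spike-in scaling moved the median of all tested probes to -0.11. The member median was -0.070 with spike-in scaling, -0.035 in the authors' normalized table, 0.083 in that table centred, 0.053 with 75th percentile scaling, 0.071 without normalization and -0.018 to 0.0100 without 1 array. In the authors' normalized table let-7a turned to -0.0067, let-7c to -0.0022, let-7e to -0.0047 and let-7d* to -0.079. With spike-in scaling let-7a turned to -0.059, let-7e to -0.035 and let-7d* to -0.100. let-7d turned to 0.024 in the centred authors' table, 0.053 with 75th percentile scaling and 0.071 without normalization, and let-7g to 0.083, 0.00029 and 0.019. let-7i turned to 0.0041 without normalization. Beside the median of all tested probes in the same setting, let-7b, let-7c and let-7d* were higher in all 16 alternatives, and let-7a and let-7e in 14. let-7d was higher in 4, let-7g in 2, and let-7f and let-7i in 0. Without 1 array, ranges were 0.0081 to 0.13 for let-7c, -0.16 to -0.020 for let-7i, -0.0063 to 0.091 for let-7a, -0.018 to 0.025 for let-7e, -0.0039 to 0.061 for let-7d* and -0.054 to 0.0028 for let-7d. let-7a was below 0 without good performers replicate 2 (-0.0030) and without poor performers replicate 1 (-0.0063). let-7e was below 0 there too (-0.018 and -0.012), let-7d* without good performers replicate 1 (-0.0039), and let-7d above 0 without poor performers replicate 2 (0.0028). With the replicate number as a block (replicate block), let-7b had an adjusted p of 0.184 and no member passed. The cause of these changes was not tested. Dim probes such as let-7d* and miR-98 are limited by their signal over the blanks.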
